A study of Mus musculus with 10 samples.

Results

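The Ciita and Socs1 locus is a stretch of mouse chromosome 16 that holds 7 neighbouring genes: Nubp1, Tvp23a, Ciita, Dexi, Clec16a, Socs1 and Rmi2. Its chromatin loops were taken as every called loop with an anchor bin overlapping 100 kb either side of the transcription start site (TSS) of any of these genes. The windows cover 60 bins of 10 kb, chr16:10310001-10650000 and chr16:10680001-10940000 in GRCm38 (mm10). They held 144 to 209 loops per group, of 53424 to 67728 in the whole lists, and 385 distinct bin pairs out of 153264 found in any list. The lists hold 2174945 to 2787117 contacts each.

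The data are Hi-C, which joins and sequences pairs of DNA fragments that were neighbours in the nucleus. The cells were macrophages grown with M-CSF from bone marrow of wild-type female C57BL/6 mice aged 2 to 3 months, and treatment began on day 6. One group, M0[CTR], had no cytokine and is called untreated here. IL-4 at 20 ng/ml was given for 24 h to the group M2[IL-4] (IL-4-treated). The group M2p[pIL-4] had the same IL-4, then a wash and 24 h of rest without it (primed). IFNG at 20 ng/ml for 3 h was given to unprimed cells, the group IFNG, and to primed cells, the group pIL-4 + IFNG. Each group had 2 samples and 1 loop list that names no replicate, taken here as pooled over both, so no value below has a replicate check, and a contact made in more cells cannot be told apart from one made more often per cell. Hi-C measures no transcripts, so the identity of the cells was not checked here against marker genes.

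CIITA is the coactivator that switches on MHC class II genes, and in macrophages its gene is a textbook target of IFNG signalling. SOCS1 binds JAK kinases and shuts off signalling by both IFNG and IL-4 receptors, and its own gene is induced by either cytokine. Between them lies Clec16a, a long gene for an endosomal protein that acts in autophagy. From left to right on GRCm38 chromosome 16, the genes are Nubp1 (10411948 to 10424428, plus strand), Tvp23a (10420557 to 10447362, minus), Ciita (10480059 to 10528418, plus), Dexi (10502531 to 10543054, minus), Clec16a (10545339 to 10744878, plus), Socs1 (10782240 to 10785536, minus) and Rmi2 (10835059 to 10892966, plus). Dexi shares its TSS bin with Clec16a, so these genes have the same window and the same values. Rmi2 encodes a subunit of the Bloom helicase complex, Nubp1 a factor of iron-sulfur cluster assembly and Tvp23a a Golgi membrane protein. Chromatin loops often form where cohesin, reeling in DNA, stops at CTCF bound to motifs that face each other, and enhancer and promoter contacts add to these.

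The sequences below show such facing motifs at the ends of 3 loops of the locus, picked after their values were seen. Each line is 40 bases of GRCm38, written 5′ to 3′ on the strand of the motif, with the 14-base match to the CTCF consensus in capitals. The first pair joins the start of Nubp1 to Ciita, the second joins Clec16a to Rmi2, and the third joins Rmi2 to Litaf, a gene for an endosomal membrane protein induced by endotoxin. All 6 lie in introns.
Nubp1 intron, plus strand, chr16:10416194-10416233, 1 mismatch: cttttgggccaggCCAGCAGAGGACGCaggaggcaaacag
Ciita and Dexi introns, minus strand, chr16:10521370-10521409, 1 mismatch: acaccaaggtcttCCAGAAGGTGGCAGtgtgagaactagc
Clec16a intron, plus strand, chr16:10640211-10640250, no mismatch: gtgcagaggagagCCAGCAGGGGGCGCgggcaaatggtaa
Rmi2 intron, minus strand, chr16:10868073-10868112, no mismatch: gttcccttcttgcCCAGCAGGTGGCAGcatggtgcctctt
Rmi2 intron, plus strand, chr16:10873784-10873823, no mismatch: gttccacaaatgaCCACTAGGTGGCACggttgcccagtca
Litaf intron, minus strand, chr16:11034602-11034641, 1 mismatch: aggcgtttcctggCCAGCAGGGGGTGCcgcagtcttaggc
The bins of the first pair were joined in every list, with 112 contacts in untreated cells, 107 under IL-4, 109 after priming, 103 under IFNG and 83 in primed cells with IFNG. Those of the third pair held 70, 87, 86, 69 and 85 contacts in the same order. The bins of the Clec16a and Rmi2 pair were not called in untreated cells and held 24 contacts under IL-4, 28 after priming, 30 under IFNG and 23 in primed cells with IFNG. A match within 1 mismatch on either strand lay in 24 of the 55 anchor bins inside the windows (43.6%), against 31.4% of all anchor bins and 21.4% of all bins of the genome. Loops with a plus-strand match in the left bin and a minus-strand match in the right bin numbered 19 of 144 at the locus in untreated cells, 21 of 187 under IL-4, 24 of 172 after priming, 18 of 182 under IFNG and 23 of 209 in primed cells with IFNG. In the whole lists they made up 11.0%, 10.5%, 10.1%, 11.1% and 10.4%, and the locus lay above this in 4 lists and below it, at 9.89%, under IFNG. Loops whose matches faced away from each other made up 9.03% of the untreated locus loops, 7.49% of the IL-4-treated, 7.56% of the primed, 5.49% of the unprimed with IFNG and 7.66% of the primed with IFNG. In the whole lists that share was 3.02% to 3.16%. A match is a string of letters and no evidence of CTCF binding, which was not measured in the files used here.

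A further stretch is shown because Socs1 is a gene that both cytokines induce. It lies upstream of the Socs1 TSS at chr16:10785591-10785632 on the minus strand, from the RefSeq promoter table for GRCm38, and its capitals mark 2 overlapping matches of GAAA, any 2 bases and GAAA again, the core of the element that interferon regulatory factors bind.
Socs1 promoter: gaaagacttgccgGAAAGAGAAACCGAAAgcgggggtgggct
Searched on both strands, this repeat occurred in 3.44% of 32851 promoter windows of 300 bases, and it was chosen after the sequence had been seen. The motif TTCNNNGAA and its longer form with 4 bases between TTC and GAA, found in 8.3% and 6.95% of these windows, had no match in the Socs1, Nubp1, Dexi and Clec16a windows, nor had the GAAA repeat in the last 3 of these. The table matched 4 of the 7 genes by symbol and not Ciita, Tvp23a or Rmi2.

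The locus held 144 loops in untreated cells, 187 under IL-4, 172 after priming, 182 under IFNG and 209 in primed cells with IFNG. As a share of each list this was 0.27% (95% Wilson interval 0.229 to 0.317), 0.321% (0.278 to 0.37), 0.254% (0.219 to 0.295), 0.331% (0.286 to 0.382) and 0.312% (0.272 to 0.357). These and all intervals below cover counting error only. Scaled by list length, the log2 ratio of loop numbers was 0.294 for IFNG over untreated (95% interval -0.03 to 0.62) and 0.295 for primed with IFNG over primed alone (-0.00136 to 0.60). It was 0.25 for IL-4-treated over untreated (-0.07 to 0.58), -0.0875 for primed over untreated (-0.41 to 0.24) and -0.0859 for primed over unprimed cells under IFNG (-0.38 to 0.21). Of the 6 comparisons, primed over IL-4-treated, at -0.34 (-0.645 to -0.03), was the only one with an interval clear of 0.

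The locus had few short loops in untreated cells. Loops spanning at most 50 kb numbered 5 in untreated cells, 25 under IL-4, 11 after priming, 26 under IFNG and 36 in primed cells with IFNG. That is 3.47% of the locus loops in untreated cells, 13.4% under IL-4, 6.4% after priming, 14.3% under IFNG and 17.2% in primed cells with IFNG. The whole lists held 14.9% to 16.9% of such loops in every group, so the untreated and primed lists lay below this range and the other 3 groups near it. Leaving out loops between adjacent bins, of which the locus had 1, 8, 4, 9 and 12 in the order above, left 143, 179, 168, 173 and 197 loops.

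**Figure D1:**
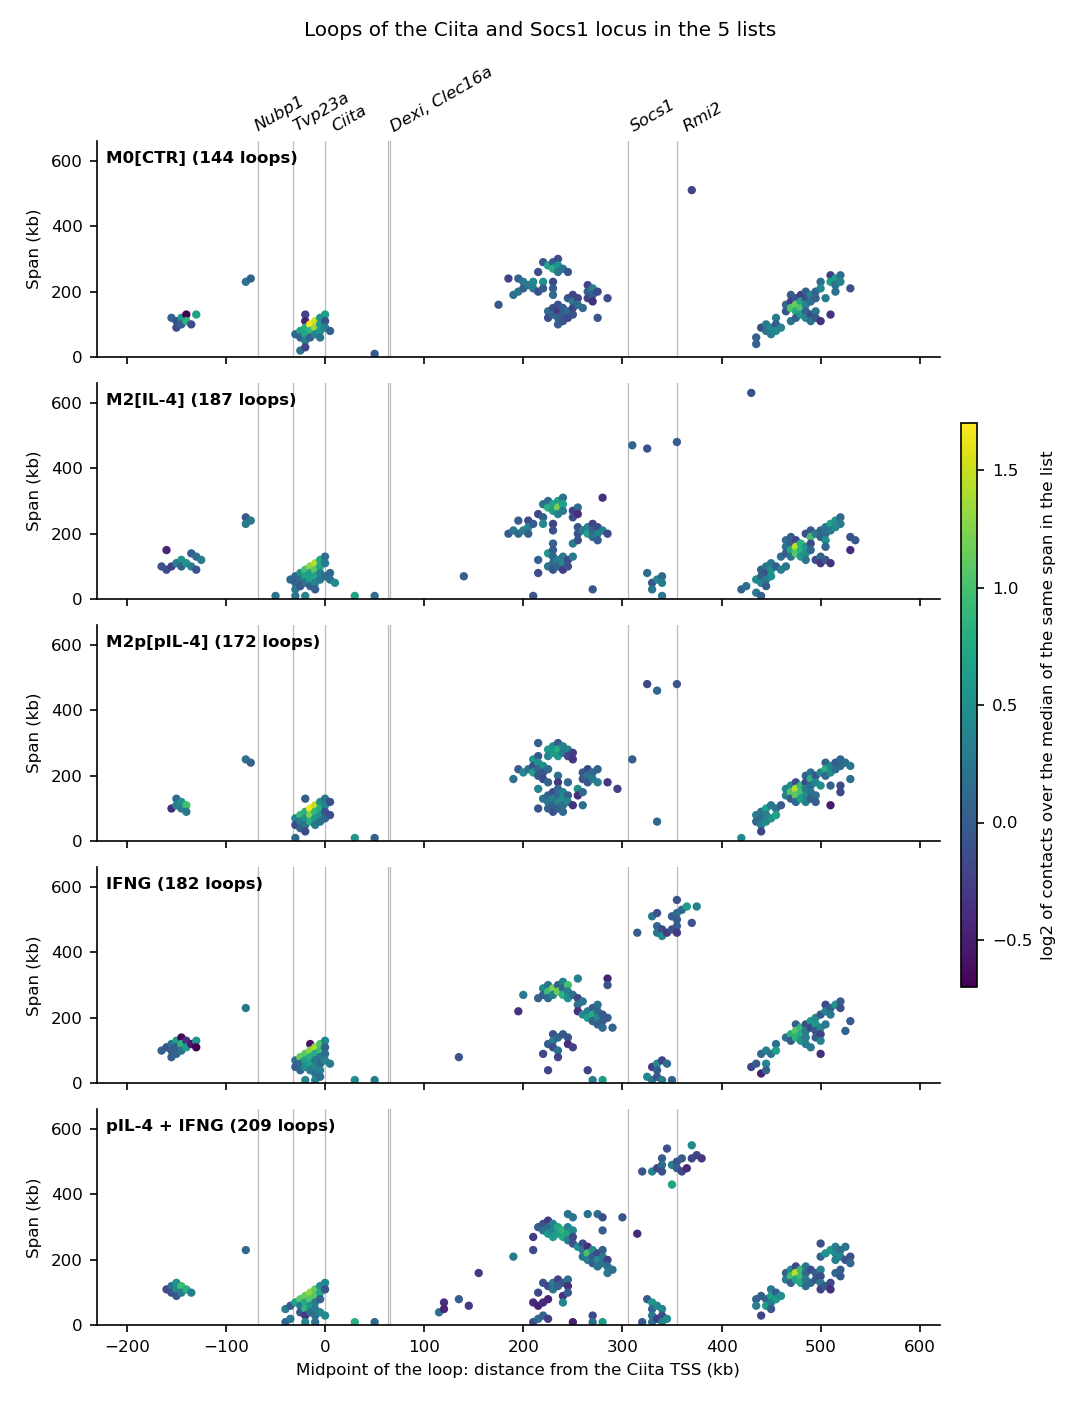
Every loop of the locus in each of the 5 lists, as the distance of its midpoint from the Ciita TSS (x axis, kb) and its span (y axis, kb), coloured by the log2 of its contacts over the median contacts of loops of the same span in that list, with grey lines at the TSSs. Blocks of loops around Ciita, across Clec16a and right of Rmi2 recur in all lists, while loops of mostly 450 to 560 kb between Clec16a and the Litaf side cluster in both lists with IFNG.

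Ciita itself was described by the loops of the bin chr16:10480001-10490000, which holds the start sites of all 8 of its annotated transcripts, so its alternative promoters cannot be told apart. This bin had 3 loops in untreated cells, 5 under IL-4, 3 after priming, 6 under IFNG and 5 in primed cells with IFNG, all to bins upstream of the gene. The 3 partners common to all lists lay 50 to 70 kb upstream, from the Nubp1 start to an intron of Tvp23a. With the Nubp1 start (from 10410001) the Ciita bin held 52 contacts in untreated cells, 52 under IL-4, 61 after priming, 56 under IFNG and 77 in primed cells with IFNG. With the Tvp23a intron (from 10430001) it held 71, 64, 66, 83 and 102 contacts in the same order.

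By exact bins, partners closer to the Ciita start bin were called only where IL-4 or IFNG was present, and in neither untreated nor primed cells. Pairs of neighbouring bins, within the 25 kb used for matching below, were called in those 2 lists. The Tvp23a start was joined to the bin from 10470001 with 63 contacts in untreated and 65 in primed cells. After priming it was also joined to the bin from 10490001, with 67 contacts. The bin between Tvp23a and Ciita from 10450001, which lies 30 kb upstream and overlaps no gene, held 72 contacts with the Ciita bin under IL-4 (95% Poisson interval 56.3 to 90.7), 89 under IFNG (71.5 to 110) and 80 in primed cells with IFNG (63.4 to 99.6). The Tvp23a start (from 10440001) held 64, 79 and 68 contacts in these lists. A bin 20 kb upstream, from 10460001, was called under IFNG alone, with 106 contacts (86.8 to 128). A pair that a list lacks was not called there, and its contact number is unknown rather than 0.

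Over the bin pairs called in both lists, the contacts of the Ciita TSS bin came to 241 in primed cells with IFNG and 189 after priming over 3 pairs, a log2 ratio of 0.37 (95% interval 0.09 to 0.65, two-sided exact binomial test, p = 0.00934, Benjamini-Hochberg adjusted p = 1). In unprimed cells the corresponding sums were 197 under IFNG and 177 in untreated cells, a log2 ratio of 0.11 (-0.19 to 0.41, exact binomial test, adjusted p = 1). Neither passed the adjustment over all anchors of the genome.

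Among the strongest loops of the locus for their span were those from the Nubp1 start into the body of Ciita. The pair 10410001 and 10510001, 100 kb apart, held 127 contacts in untreated cells, 100 under IL-4, 126 after priming, 100 under IFNG and 98 in primed cells with IFNG. These were 3.17, 2.44, 3.15, 2.44 and 2.45 times the median of loops of that span in their lists, the highest of any locus loop in the untreated and primed lists. The bin next to the Ciita start, from 10490001, held 74, 65, 85, 103 and 95 contacts with the Nubp1 start. At the far bin the untreated and primed lists thus had the most contacts, and at the near bin both lists with IFNG did. The bin from 10510001 summed to 262 contacts under IFNG and 333 in untreated cells over 4 shared pairs (log2 ratio -0.39, -0.63 to -0.15, binomial p = 0.00119, adjusted p = 1), and the bin from 10490001 to 266 and 209 over 3 pairs (0.30, 0.04 to 0.57, p = 0.0249, adjusted p = 1). Neither bin passed the test after adjustment.

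Inside Ciita, the adjacent bins from 10500001 and 10510001 were called in every list but the untreated one, with 219 contacts under IL-4, 213 after priming, 201 under IFNG and 253 in primed cells with IFNG. This was the loop with the most contacts at the locus in those lists other than IFNG. Under IFNG that place went to the adjacent bins from 10750001 and 10760001 between Clec16a and Socs1, with 226 contacts, a pair called elsewhere only in primed cells with IFNG, with 220. In untreated cells it went to the adjacent bins from 10520001 and 10530001 in Ciita and Dexi, with 141.

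The Dexi and Clec16a start bin had few loops: 2 in untreated cells, 1 under IL-4, 3 after priming, 2 under IFNG and 4 in primed cells with IFNG. The one found in all lists reached the Nubp1 start, with 56, 40, 41, 49 and 47 contacts. The Tvp23a start bin had 4, 6, 6, 4 and 4 loops, and the Nubp1 start bin 8, 11, 7, 8 and 9. For Nubp1, 7 partners in Ciita, Dexi and the shared Dexi and Clec16a start were called in every list.

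Scaled by list length, the number of loops within 100 kb of a TSS stayed within 1.5-fold between groups in all but 1 value. Ciita had 55 loops in untreated cells, 73 under IL-4, 62 after priming, 77 under IFNG and 79 in primed cells with IFNG. Socs1 had 89, 109, 108, 93 and 108. Nubp1 had 34, 47, 36, 49 and 42, Tvp23a 37, 50, 40, 51 and 46, Dexi and Clec16a 68, 86, 84, 92 and 102, and Rmi2 107, 131, 130, 111 and 135. All 7 genes passed the minimum of 20 loops in each pair of lists. A difference was called at 1.5-fold either way, with no test, and this took in 10.9% of genes for IL-4-treated over untreated, 7.47% for primed over untreated, 9.4% for primed over IL-4-treated, 12.1% for IFNG over untreated, 11.4% for primed with IFNG over primed alone and 7.95% for primed over unprimed cells under IFNG. Across these 6 comparisons 1 value among the 7 genes was past it, Nubp1 in primed over IL-4-treated, at a log2 ratio of -0.59 (-1.27 to 0.06).

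**Figure D2:**
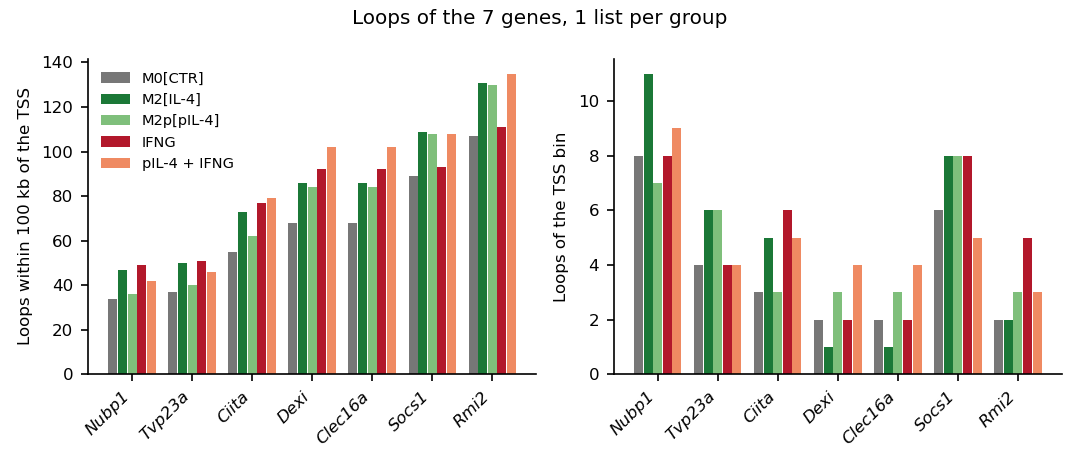
Loops within 100 kb of each TSS (left) and loops of the 10 kb bin that holds the TSS (right), as numbers in the 1 list of each group, so there are no error bars. Loops near Ciita range from 55 in untreated cells to 79 in primed cells with IFNG, and its TSS bin has 3 loops in the untreated and primed lists and 5 or 6 in the other lists.

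After IFNG, the scaled log2 ratio of loop numbers in unprimed cells was 0.44 at Ciita (-0.07 to 0.97), above 89.3% of all genes, and 0.39 at Dexi and Clec16a, where it was 0.11 without loops under 20 contacts. At Socs1 it was 0.02 (-0.41 to 0.46) and at Rmi2 0.01, near the median of all genes of -0.03. In primed cells the values were 0.36 at Ciita (-0.13 to 0.87), 0.29 at Dexi and Clec16a, 0.02 at Socs1 and 0.07 at Rmi2. The intervals of all 7 genes in both comparisons include 0. The medians over the 7 genes were 0.39 and 0.23, beside medians of -0.03 and 0.02 over all genes tested, and the windows of neighbouring genes overlap, so they are not 7 separate measurements.

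Loops near Socs1 were about as many in untreated cells as under IFNG, and the numbers of bin pairs between stretches of the locus differed. To count these, the locus was divided, after its values had been seen, into a Nubp1 to Dexi stretch (10310001 to 10540000), the Clec16a stretch (10540001 to 10750000), a stretch from the gap between Clec16a and Socs1 through the Prm genes to the Rmi2 start (10750001 to 10840000), the Rmi2 stretch (10840001 to 10940000) and the Litaf side beyond it. Prm1, Prm2 and Prm3 encode protamines, which pack DNA in sperm. Loops between the Clec16a and the Socs1 stretch numbered 40 in untreated cells, 34 under IL-4, 46 after priming, 18 under IFNG and 17 in primed cells with IFNG. Loops between Clec16a and Rmi2 numbered 15, 28, 23, 36 and 46 in the same order. Loops between Clec16a and the Litaf side numbered 1, 4, 3, 19 and 19, and loops within the Socs1 stretch 0, 3, 0, 8 and 9. Loops within Clec16a numbered 1, 3, 1, 3 and 16.

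As a share of the locus, Clec16a to Socs1 loops made up 27.8% in untreated cells (95% Wilson interval 21.1 to 35.6), 18.2% under IL-4 (13.3 to 24.3), 26.7% after priming (20.7 to 33.8), 9.89% under IFNG (6.35 to 15.1) and 8.13% in primed cells with IFNG (5.14 to 12.6). Clec16a to Rmi2 loops made up 10.4% (6.41 to 16.5), 15.0% (10.6 to 20.8), 13.4% (9.08 to 19.3), 19.8% (14.6 to 26.2) and 22.0% (16.9 to 28.1). Both IFNG lists thus held fewer of the former and more of the latter than the untreated and primed lists, and IL-4-treated cells lay between them. The lists that differ by IFNG alone, unprimed cells with and without it and primed cells with and without it, have no list in common. Loops between Rmi2 and the Litaf side, at 50, 57, 57, 43 and 54, and within the Nubp1 to Dexi stretch, at 24, 33, 28, 32 and 31, had shares of the locus of 34.7%, 30.5%, 33.1%, 23.6% and 25.8%, and of 16.7%, 17.6%, 16.3%, 17.6% and 14.8%. When touching bin pairs were merged to 1 loop, Clec16a to Socs1 loops numbered 4, 5, 4, 6 and 5 and Clec16a to Rmi2 loops 3, 3, 5, 3 and 5, so the differences lie in how many bin pairs the blocks cover. Without loops under 20 contacts, Clec16a to Litaf loops numbered 0, 0, 0, 3 and 4.

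**Figure D3:**
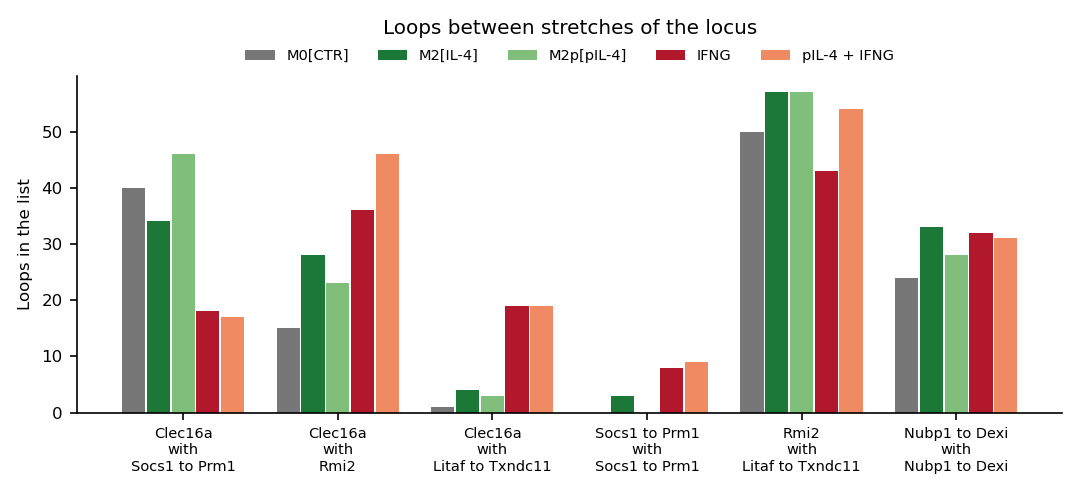
Number of loops between stretches of the locus in each list (bars, 1 list per group, no error bars). Clec16a to Socs1 loops number 40 in untreated cells against 18 under IFNG and 46 after priming against 17 in primed cells with IFNG, while Clec16a to Rmi2 and Clec16a to Litaf loops are more numerous in both IFNG lists.

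To read these numbers against the genome, loops were counted over pairs of 100 kb tiles with at least 10 loops in both lists together, a count also chosen after the locus had been seen. In IFNG over untreated, 11.0% of 3313 tile pairs were 1.5-fold or more higher and 11.6% lower. Tiles do not follow the stretches above. The tile of the 5′ part of Clec16a (10500001 to 10600000) also holds parts of Ciita and Dexi. That of Socs1 (10700001 to 10800000) also holds the right end of Clec16a, so loops within Clec16a count there. This pair had 10 loops in untreated cells, 7 under IL-4, 6 after priming, 1 under IFNG and 2 in primed cells with IFNG. Its scaled log2 ratio for IFNG over untreated was -2.5, and only 0.0906% of tile pairs lay lower. The untreated list was also the higher one in comparisons without IFNG. For primed over untreated the ratio was -0.994, past 1.5-fold, and 2.02% of tile pairs lay lower. For IL-4-treated over untreated it was -0.584, not past 1.5-fold, and 12.0% lay lower. The same tile of Clec16a with Litaf (11000001 to 11100000) had 0, 3, 3, 13 and 11 loops. For IFNG over untreated this was the highest ratio among the tile pairs, with a pseudocount of 1 loop. In primed with IFNG over primed alone, where 11.1% of 4149 tile pairs were called higher and 9.69% lower, the Litaf tile pair had a log2 ratio of 1.6, above 99.3% of tile pairs, and the Socs1 tile pair had too few loops to enter.

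The tile of the middle of Clec16a (10600001 to 10700000) had 14, 17, 24, 13 and 20 loops with the Socs1 tile. With the tile from 10800001, which holds Rmi2, Gm11172 and part of Prm1, it had 18, 18, 18, 19 and 21. The tile from 10500001 had 14, 19, 21, 19 and 22 loops with that same tile. The scaled log2 ratio of this last pair was 0.373 for IFNG over untreated, above 78.6% of tile pairs. For primed with IFNG over primed alone it was 0.0797, above 58.5%. None of these pairs passed 1.5-fold in IFNG over untreated or in primed with IFNG over primed alone.

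By single partner bins, the bin from 10810001, which holds Gm11172 and lies right of the Prm genes, had 7 loops with Clec16a in untreated cells, 3 under IL-4, 8 after priming, 1 under IFNG and 0 in primed cells with IFNG. The bin of Prm2 and Prm3, from 10790001, had 9, 4, 9, 2 and 1. The Socs1 start bin had 6, 5, 7, 5 and 3. Inside Rmi2, the bin from 10850001 had 8, 8, 9, 11 and 15 loops with Clec16a, and the bin from 10860001, which holds the minus-strand motif shown above, had 1, 8, 5, 10 and 12.

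**Figure D4:**
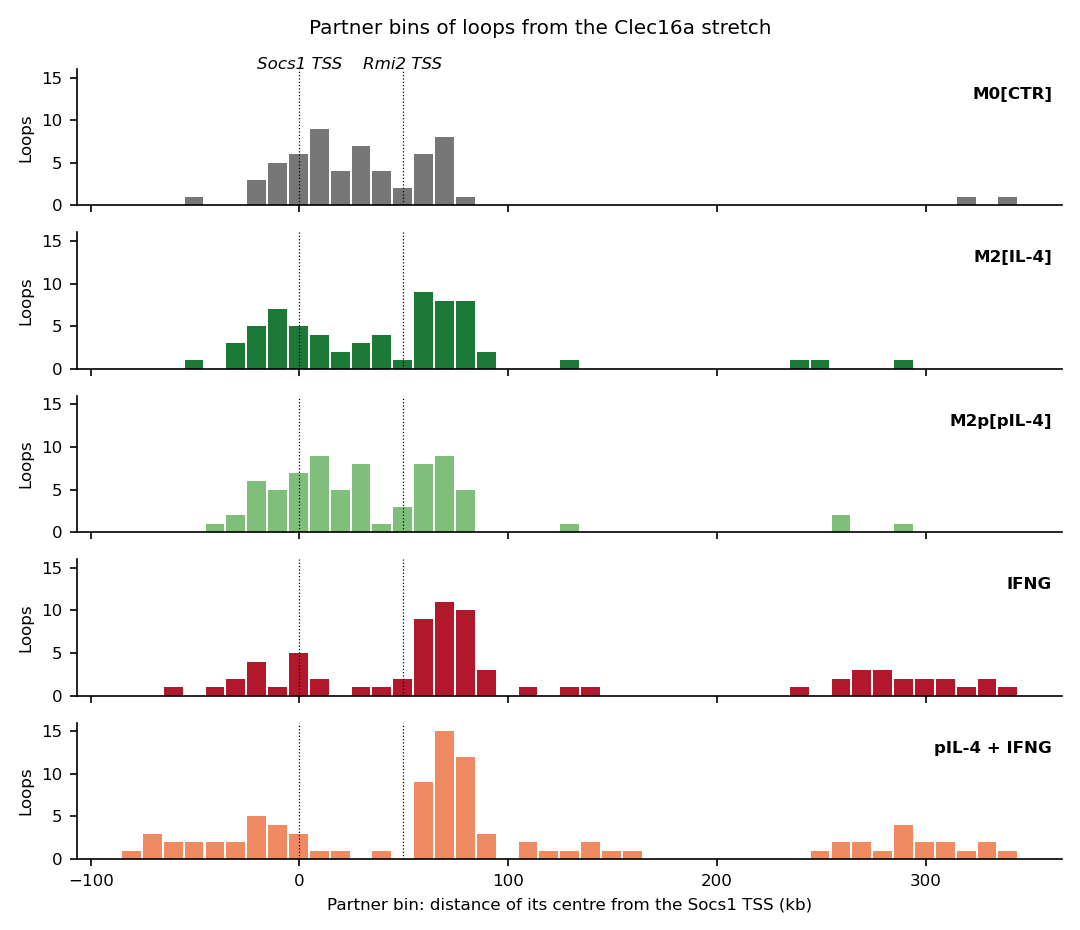
Number of loops from the Clec16a stretch to each 10 kb partner bin (y axis) by the distance of the bin's centre from the Socs1 TSS (x axis, kb), 1 panel per list, with dotted lines at the Socs1 and Rmi2 TSSs. Every list has loops around Socs1 and at the bins of Rmi2 from 10840001 and 10850001. The untreated and primed lists hold more than the others in the bins from Prm3 to Gm11172, and both lists with IFNG have a further group near Litaf and Txndc11.

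The loops of the Socs1 start bin (10780001 to 10790000, shared with Tnp2, a sperm nuclear protein gene) numbered 6 in untreated cells, 8 under IL-4, 8 after priming, 8 under IFNG and 5 in primed cells with IFNG. In untreated cells all of them reached left into Clec16a. The other lists added loops to the right, into Rmi2. With the Rmi2 bin from 10840001 the Socs1 bin held 68 contacts under IL-4 (95% Poisson interval 52.8 to 86.2), 55 after priming (41.4 to 71.6), 74 under IFNG (58.1 to 92.9) and 69 in primed cells with IFNG (53.7 to 87.3), and the pair was not called in untreated cells. With the Rmi2 start bin it held 53 contacts under IL-4, 49 under IFNG and 59 in primed cells with IFNG, and this pair was called in neither untreated nor primed cells.

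To the left, the Socs1 bin was joined in every list only to the Clec16a bin from 10660001, with 33 contacts in untreated cells, 34 under IL-4, 48 after priming, 29 under IFNG and 29 in primed cells with IFNG. With the Clec16a bin from 10570001, 210 kb away, it held 28, 35 and 36 contacts in untreated, IL-4-treated and primed cells and was not called in either IFNG list. Over pairs called in both lists, the contacts of the Socs1 bin summed to 200 after priming and 156 in untreated cells over 5 pairs, a log2 ratio of 0.32 (0.01 to 0.63, binomial p = 0.0437, adjusted p = 1). None of its 6 comparisons passed the adjusted test.

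The Rmi2 start bin had 2, 2, 3, 5 and 3 loops. The 2 in untreated cells and all 3 after priming reached Clec16a, whereas in primed cells with IFNG all 3 were shorter loops to the Socs1 stretch, of 20 to 50 kb.

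The Rmi2 bin chr16:10850001-10860000, which lies wholly in an intron, was the only bin inside the windows that passed the anchor test. Its contacts rose in IFNG over untreated, summing to 307 and 191 over 7 bin pairs called in both lists. The log2 ratio was 0.64 (95% interval 0.38 to 0.91, two-sided exact binomial test, Benjamini-Hochberg adjusted p = 0.0124). All 7 partners lay in Clec16a, and all 7 pairs held more contacts under IFNG. In this comparison 4 of 21277 anchors of the genome passed (0.0188%), and the other 5 comparisons had none (0.0% of 21972 to 25563 anchors, with 349 to 463 at an unadjusted p under 0.05). The test compares 2 lists, not replicated conditions, and uses only pairs that both lists call.

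The values below are for 5 of the 7 partners. With the bin from 10560001 it held 23 contacts in untreated cells, 37 under IL-4, 33 after priming, 53 under IFNG and 30 in primed cells with IFNG. With the bin from 10570001 it held 34, 53, 40, 53 and 36. With the bin from 10580001 it held 28, 29, 30, 43 and 39. The IL-4-treated list equalled the IFNG list at 10570001 and lay next to the untreated list at 10580001. With the bin from 10630001 the values were 23, 34, 24, 35 and 52, and with that from 10640001, which holds the plus-strand motif shown above, 34, 29, 30, 48 and 27. The list of primed cells with IFNG was highest at 10630001 and lowest at 10640001. The bin itself holds no match to the CTCF consensus, and the next bin to the right holds 3.

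**Figure D5:**
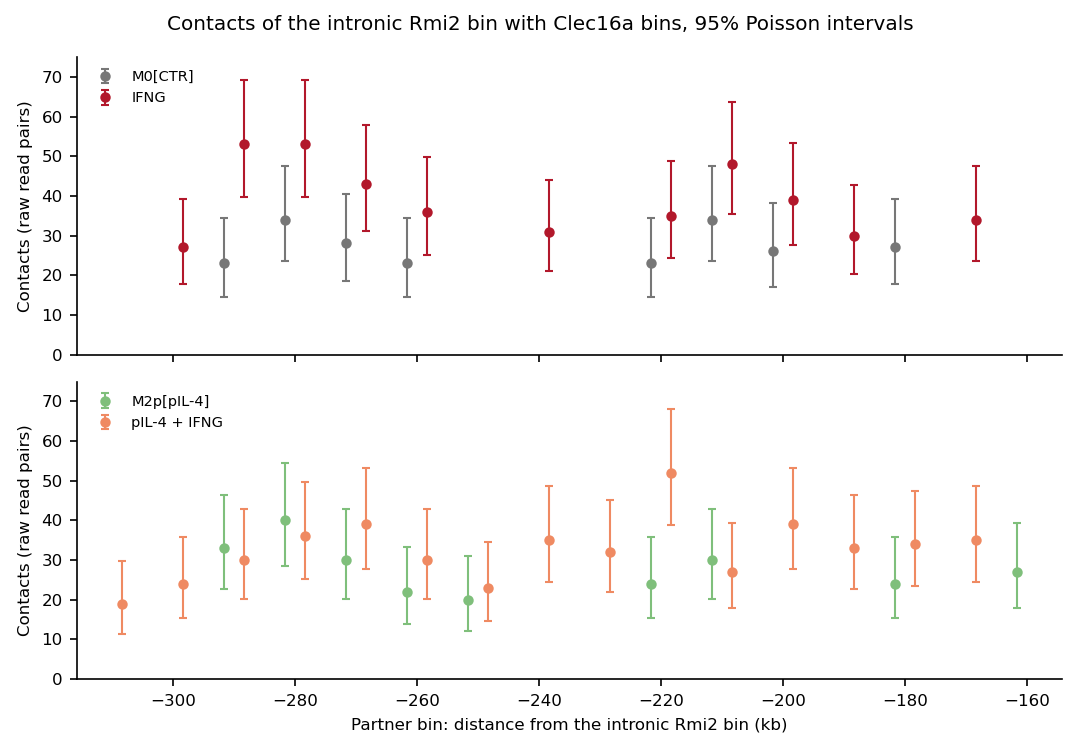
Contacts (raw read pairs) of the intronic Rmi2 bin with each Clec16a bin (x axis, distance in kb) in the untreated and IFNG lists (top) and in the primed lists without and with IFNG (bottom), with 95% Poisson intervals for counting error. A bin pair with no point was not called in that list. At all 7 partners called in both upper lists IFNG lies above the untreated list, while in the lower panel neither list lies above the other at every partner.

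In primed cells, the same bin summed to 271 contacts with IFNG and 223 without over 8 pairs, a log2 ratio of 0.30 (0.04 to 0.56, binomial p = 0.0236, adjusted p = 1). The difference between the IFNG effect with and without priming was -0.34 (SE 0.186) and did not pass the test over all anchors, so a weaker effect after priming was not shown. For IL-4-treated over untreated the log2 ratio was 0.33 (0.05 to 0.605, exact binomial p = 0.0195, adjusted p = 1), and for primed over untreated 0.04 (-0.25 to 0.33, adjusted p = 1). Of 17739 anchors tested for a difference of the IFNG effect none passed (0.0%, 337 at an unadjusted p under 0.05), and of the 32 in the windows 2 had an unadjusted p under 0.05.

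Contacts were also summed over all Clec16a to Rmi2 pairs, those of this bin included, with no test since the stretches were drawn after the values were seen. Over the 13 pairs called in both lists, they came to 516 under IFNG and 369 in untreated cells, a log2 ratio of 0.44 (0.245 to 0.64). The intronic bin supplied 7 of these 13 pairs, with 307 of the 516 contacts and 191 of the 369. This ratio is therefore no separate measurement and does not show a change across the whole stretch. For IL-4-treated over untreated, 13 pairs came to 464 under IL-4 and 374 in untreated cells, 0.31 (0.11 to 0.51). In primed with IFNG over primed alone the ratio was 0.195 over 20 pairs (0.03 to 0.36), and in primed over untreated 0.06 over 13 pairs (-0.15 to 0.26). For Clec16a to Socs1 pairs the ratio was 0.07 in IFNG over untreated over 9 pairs (-0.16 to 0.305) and -0.255 in primed with IFNG over primed alone over 11 pairs (-0.46 to -0.06). The loops between Clec16a and the Litaf side held 13 to 23 contacts under IFNG and 12 to 27 in primed cells with IFNG, close to the lowest counts at the locus, and only 4 of them were called in the same bins in both lists.

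In the classes drawn from the untreated, IL-4-treated and primed lists, with loops matched when both anchors lay within 25 kb, 97.9% of the 144 untreated loops were found in all 3 lists, against 86.2% of the whole list. Of the 187 IL-4-treated loops, 6 were Transient, found in that list alone, and 12 were Memory, found also after priming but not in untreated cells, or 3.21% and 6.42% beside 7.23% and 6.32% of the whole list. Of the 172 primed loops, 1 was Primed, found in that list alone (0.581%, whole list 8.35%). The Memory loop strongest for its span was the one from the Socs1 start to Rmi2, at 1.31 times the median under IL-4. The Transient one joined the bins from 10810001 and 10820001, between the Prm genes and Rmi2, with 166 contacts under IL-4. It was called again under IFNG with 184 contacts and in primed cells with IFNG with 186.

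Lists were also matched in pairs. Under IFNG 31 of 182 loops had no match in untreated cells (17.0%, Wilson interval 12.3 to 23.2, whole list 13.0%), and in primed cells with IFNG 32 of 209 had none after priming (15.3%, 11.1 to 20.8, whole list 11.4%). In the other direction 5 of 144 untreated loops had none under IFNG (3.47%, 1.49 to 7.87, whole list 12.0%) and 4 of 172 primed loops none in primed cells with IFNG (2.33%, 0.908 to 5.83, whole list 11.3%). Of the 187 loops under IL-4, 18 had none in untreated cells (9.63%, 6.18 to 14.7, whole list 13.6%). Of the 172 after priming, 6 had none in untreated cells (3.49%, whole list 14.1%) and 2 none under IL-4 (1.16%, whole list 12.9%), and of the 209 in primed cells with IFNG, 5 had none under IFNG (2.39%, whole list 13.5%). Of the 182 IFNG loops, 0 lacked a match in primed cells with IFNG (0.0%, with an upper Wilson bound of 2.07%), against 9.17% of the whole list. Within 25 kb, nearly all loops of both IFNG lists thus had a match in the other. This was not particular to them, as 1.16% of primed loops lacked a match under IL-4 and 1.39% of untreated loops one after priming. The loops lie in blocks of touching bin pairs, and matching in the same bins left far larger unmatched shares, given below.

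Genes of the pathways around Ciita and Socs1, which lie elsewhere in the genome, mostly stayed within 1.5-fold, a call made with no test at the shares of genes given above. Of 22 genes from the IFNG receptor to MHC class II, 16 to 18 had enough loops. In IFNG over untreated 1 of 17 was past it, Jak2, a kinase of the IFNG receptor, with 28 loops against 17 (log2 ratio 0.65). In primed with IFNG over primed alone 3 of 17 were past it, all lower: Rfx5, a DNA-binding partner of CIITA at MHC class II promoters, with 10 against 22 (-1.05), Jak1 with 9 against 18 (-0.91) and Ifngr1, a chain of the receptor, with 17 against 28 (-0.67). Jak1 was also higher after priming than in untreated cells, at 18 against 8 (0.74), and than under IL-4, at 18 against 9 (0.71), and lower in primed cells with IFNG than under IFNG (-0.66). Its comparisons share lists. The median of the list was 0.13 for IFNG over untreated and 0.08 for primed with IFNG over primed alone, beside -0.03 and 0.02 over all genes tested. The windows of H2-DMa, H2-DMb1, H2-Ab1, H2-Aa and H2-Eb1, neighbours in the MHC, overlap, so their values are not separate measurements.

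Of 14 genes of IL-4 signalling and of the SOCS family other than Socs1, 13 had enough loops. Ptpn11, which encodes the phosphatase SHP2, was the only one called after IFNG, with 23 loops under IFNG against 10 in untreated cells (1.08) and 23 in primed cells with IFNG against 12 after priming (0.90). Pias1, which encodes a SUMO ligase, was higher under IL-4 than in untreated cells, with 38 against 22 (0.64). No SOCS gene passed 1.5-fold in any comparison. Among 6415 genes on other chromosomes with a mean of at least 20 loops, the profile over the 5 lists nearest to that of Ciita belonged to March10, with 33, 44, 39, 45 and 47 loops and a root mean square difference of 0.0352 on the centred log2 scale, before Capn10 (0.0473) and Arhgap29 (0.0477). Nearest to Socs1 were Tmem138 and Cyb561a3, which gave the same values (0.00945), and Mrtfa (0.0107).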

How the data were processed

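The deposited values were counts, raw contacts per pair of 10 kb bins, in 1 loop list per group, with no replicate named, taken here as pooled over both. FastQC, HiC-Pro, Bowtie2, Juicer, HOMER and mm10 are named in the authors' methods and labels. The methods call loops with HICCUPS at 25 kb, and the caller and threshold behind the 10 kb lists are not given in the sources used here.

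Loops were assigned to genes by GENCODE M21 TSSs (21755 entries). Ratios of loop numbers were divided by the ratio of list lengths, with 1 loop added to each number and at least 20 loops in both lists together. Contacts of an anchor were summed over bin pairs called in both lists and set against the list totals of such pairs in an exact binomial test, two-sided, adjusted by Benjamini-Hochberg over all anchors. On simulated data for IFNG over untreated, the test called 33 of 50 anchors changed 1.5-fold, 50 of 50 changed 2-fold and 20 of 20345 unchanged. Changed anchors were drawn only from those with more contacts than, for example, the Socs1 start bin (98 under IFNG, 92 in untreated cells). Detection at sparser bins was not simulated. The noise was Poisson, without the selection by a loop caller, whereas the observed variance was 0.652 of sampling noise, so these rates need not carry over. The genes, gene lists and rules were chosen with earlier results of these data known. Named were the 7 genes, genes at partner bins, pathway genes past 1.5-fold, the 3 genes most like Ciita or Socs1 and, for single loops, those with the most contacts, the strongest per class and those of start bins. Others were picked after their values were seen. Alternatives were other windows, scalings, matching distances and minimum contacts, merged or non-adjacent loops and equal list lengths. Software was Python 3.11.15 with pandas 2.3.3, numpy 2.4.6, matplotlib 3.10.9 and scipy 1.17.1.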

Additional observations from a re-analysis of the deposited data

How the results depend on the processing

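No paired analysis was possible because no list names a replicate and every group has just 1, so neither a replicate block nor leaving out a replicate could be run. Merging touching bin pairs left 17 loops at the locus in untreated cells, 31 under IL-4, 23 after priming, 28 under IFNG and 36 in primed cells with IFNG. It raised the log2 ratio to 0.709 for IL-4-treated over untreated, 0.647 for IFNG over untreated and 0.634 for primed with IFNG over primed alone, and put 1, 3 and 4 of the 7 genes past 1.5-fold in those comparisons, beside 19.6%, 21.1% and 20.8% of all genes tested. A 25 kb window put 1 gene past it in IL-4-treated over untreated and 2 in IFNG over untreated, beside 27.3% and 27.4% of all genes. The call of Nubp1 in primed over IL-4-treated was lost (0 genes) with a 50 kb window, no scaling, scaling by the contacts of pairs in all 5 lists, no adjacent bins, equal list lengths and the TSS of every transcript. Of 378 ratios of single genes under these alternatives, 369 stayed within the 95% interval of the reported value and 9 did not. These intervals are wide, for example -0.07 to 0.97 for Ciita in IFNG over untreated. A change of sign was looked for only in the 1 called value, that of Nubp1, which kept its sign.

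With loops matched only in the same bins, the unmatched share was 48.7% of IL-4-treated loops against untreated, 40.1% of primed against untreated, 35.5% of primed against IL-4-treated, 55.5% of IFNG against untreated, 51.2% of primed with IFNG against primed alone and 45.9% of primed with IFNG against IFNG. Within 50 kb the last 4 were 0.0%, 9.34%, 4.31% and 0.478%. The call of the intronic Rmi2 bin was kept under all 5 alternatives, at log2 ratios of 0.641 to 0.667 and adjusted p of 0.0106 to 0.0464. Not all of these could have overturned it. Its shared pairs all reach Clec16a and sum to 307 contacts under IFNG and 191 in untreated cells. Leaving out adjacent bins or raising the minimum contacts per anchor therefore kept these pairs and could change only the other anchors or the totals. The variance could not be widened, since the observed variance over all anchors was 0.609 to 0.656 of sampling noise. Widening it was therefore no check of the call.

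The numbers of loops between stretches were recomputed in ways chosen after seeing the data. Without loops under 20 contacts, the Clec16a to Litaf loops came to 0, 0, 0, 3 and 4 in the order above, and the Clec16a to Socs1 loops to 40, 34, 46, 18 and 16. Merged, the Clec16a to Socs1 loops came to 4, 5, 4, 6 and 5, so the difference there lies in the extent of blocks of bin pairs. With the edges of the stretches 20 kb further right, the Clec16a to Socs1 loops were 48, 41, 54, 29 and 30 and the Clec16a to Rmi2 loops 1, 11, 6, 16 and 20. The edges were also moved 20 kb to the left, and those numbers are not given here.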
